A study of Rattus norvegicus with 12 samples.

Results

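The 9 genes described here, Ttr, Kl, Folr1, Clic6, Sostdc1, Otx2, Aqp1, Slc4a5 and Prlr, are known as markers of the choroid plexus epithelium, and were chosen by symbol from 26949 genes measured in rat hippocampus. All 9 symbols were found in the RNA table. The tissue was hippocampus of male rats that spent 4 weeks either in chronic intermittent hypoxia (CIH), in which oxygen falls and recovers in cycles as in sleep apnoea, or in normoxia (control). Each group had 3 RNA libraries and 3 small RNA libraries. The sources used here give neither strain nor age. Whether each library is a separate animal is not stated by the labels either, and p-values therefore measure only the spread between libraries, which may be technical.

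The choroid plexus is a fold of secretory epithelium inside the brain ventricles that makes cerebrospinal fluid and carries hormones, vitamins and ions from the blood into it. It lies directly beside the hippocampus in the lateral ventricle. Ttr encodes transthyretin, the carrier of thyroid hormone and retinol that this epithelium secretes in large amounts.

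RNA libraries held 17170943 to 21941173 estimated read counts. Every pair of RNA libraries differed by more than sampling noise, with a chi-square per degree of freedom of 6.67 or more. The lowest value was that of CIH replicate 3 with control replicate 1. The next lowest was 12.3, for control replicate 2 with control replicate 3. The neuronal kinase gene Camk2a, listed here with the markers of hippocampal pyramidal cells, reached 1922, 4630 and 4827 TPM (a level corrected for transcript length and scaled to 1e+06 per library) in the CIH libraries, against 4709, 2448 and 2951 TPM in the control libraries. CIH replicate 1 was the lowest of the 6 for summed pyramidal markers (2873 TPM) and for summed dentate granule cell markers (190 TPM). Camk2a made up most of the pyramidal sum. By CPM (counts per 1e+06 counts), 3 of 7 tested pyramidal markers were lowest in CIH replicate 1, against 6 of 6 tested dentate markers. The pyramidal markers Wfs1 and Cpne7 were lowest in control replicate 3 and control replicate 1. The part of these differences in the results below was not tested.

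Ttr (gene ID 24856) was the only one of the 9 genes above 3 TPM, and its level varied widely within both groups. It stood at 1.10, 5.88 and 61.9 TPM in CIH replicates 1, 2 and 3, against 56.1, 23.8 and 13.1 TPM in control replicates 1, 2 and 3. These levels rest on 5, 33 and 315 counts in CIH and 290, 124 and 73 counts in control. Ttr averaged 23.0 ± 33.8 TPM in CIH and 31.0 ± 22.4 TPM in control (SD, n = 3 each). The highest and the lowest library both belonged to the CIH group, and the control libraries lay between them. As CPM (counts per 1e+06 counts of the library), Ttr ran from 0.291 (0.0945 to 0.680) in CIH replicate 1 to 15.7 (14.1 to 17.6) in CIH replicate 3, exact 95% intervals that cover counting error only. In CIH replicate 1, 64.0% of all genes had a higher TPM than Ttr, while in CIH replicate 3 only 12.1% did.

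**Figure D1:**
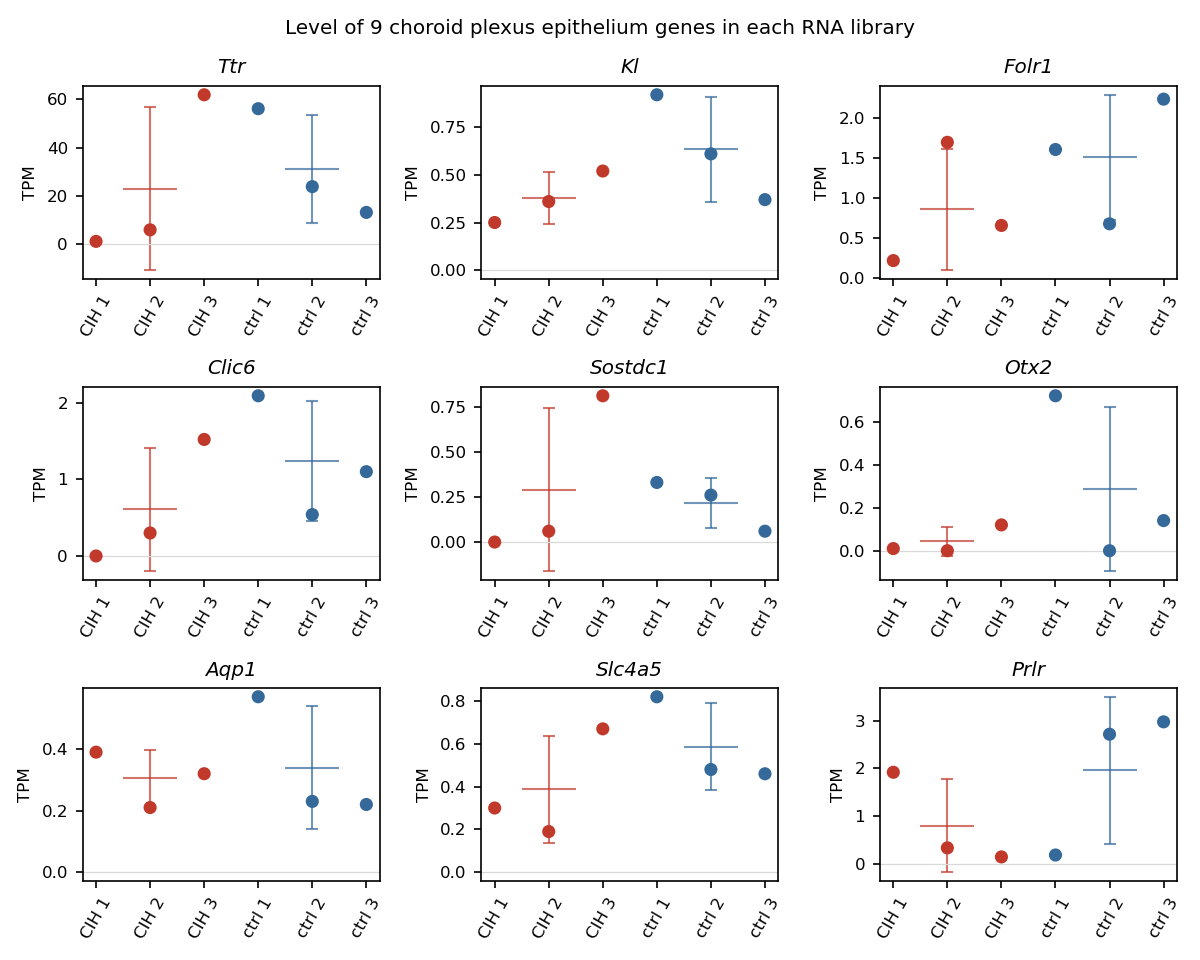
Level of each of the 9 genes in TPM (y axes, a separate scale for each gene) in the 3 CIH libraries (red, left) and 3 control libraries (blue, right). Dashes and whiskers give the group mean and SD. Ttr reached 61.9 TPM in CIH replicate 3 and 1.10 TPM in CIH replicate 1, while Prlr stood at 0.14 TPM in CIH replicate 3 and 1.92 TPM in CIH replicate 1.

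Of the other secreted or membrane proteins, Kl (gene ID 83504) encodes klotho, the co-receptor of the hormone FGF23. Kl had 8, 14 and 18 counts in the CIH libraries (0.25, 0.36 and 0.52 TPM), against 33, 22 and 14 counts in the control libraries (0.92, 0.61 and 0.37 TPM). Its CIH levels lay towards the low end and overlapped the controls through control replicate 3. Sostdc1 (gene ID 266803), a secreted antagonist of BMP and WNT signalling, had 0, 1 and 12 counts in CIH and 5, 4 and 1 counts in control. Its only library above 5 counts was CIH replicate 3, the library with the most Ttr. A count of 0 in CIH replicate 1 allows a level of up to 0.175 CPM.

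Folr1 (gene ID 171049) encodes the folate receptor alpha, which carries folate across the epithelium. It had 2, 17 and 6 counts in the CIH libraries (0.22, 1.70 and 0.66 TPM), against 15, 6 and 22 counts in the control libraries (1.61, 0.68 and 2.24 TPM). Its order did not follow that of Ttr: control replicate 3 was highest and CIH replicate 2 second. Prlr (gene ID 24684) encodes the prolactin receptor, which takes up prolactin from blood at the choroid plexus and is also known from neurons. It had 31, 8 and 3 counts in CIH (1.92, 0.33 and 0.14 TPM), against 6, 44 and 45 counts in control (0.18, 2.72 and 2.98 TPM). Prlr was low in the libraries with the most Ttr, CIH replicate 3 and control replicate 1, and high in control replicates 2 and 3 and in CIH replicate 1.

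Among the channels and transporters that move water and ions into cerebrospinal fluid, Clic6 (gene ID 304081), a chloride intracellular channel family member, had 0, 7 and 15 counts in CIH and 22, 6 and 14 counts in control. Slc4a5 (gene ID 297386), a sodium bicarbonate cotransporter of the apical membrane, had 7, 5 and 19 counts in CIH and 20, 15 and 13 counts in control. Both were high in the libraries with the most Ttr and overlapped between the groups. In the GRCr8 gene table Slc4a5 overlaps another, uncharacterised locus, whose reads could not be told apart where counting ignored strand. Aqp1 (gene ID 25240), the apical water channel, had 9, 6 and 8 counts in CIH (0.39, 0.21 and 0.32 TPM) and 15, 6 and 6 counts in control (0.57, 0.23 and 0.22 TPM). Aqp1 therefore stayed at 0.57 TPM or below in every library. Otx2 (gene ID 305858), a homeodomain factor needed to form and keep the choroid plexus, had estimated counts of 0.25, 0.00 and 4.79 in CIH and 19.38, 0.00 and 4.00 in control. Estimated counts that are not whole arise where a read matches more than 1 transcript or gene, and Otx2 is uncertain for that reason as well as for its depth.

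By deposited TPM, 5 of the 9 genes (Kl, Clic6, Otx2, Aqp1 and Slc4a5) were highest in control replicate 1. In CIH replicate 1, 5 of the 9 (Ttr, Kl, Folr1, Clic6 and Sostdc1) were at their lowest, and Otx2 was tied at 0 in CIH replicate 2 and control replicate 2. The 9 genes summed to 4.19, 9.03 and 66.6 TPM in the CIH libraries, against 63.4, 29.3 and 20.7 TPM in the control libraries. The mean sum was 26.6 ± 34.7 TPM in CIH and 37.8 ± 22.6 TPM in control (SD, n = 3 each), a difference smaller than the SD of either group. In bulk tissue, fewer cells of a type and less RNA per cell cannot be told apart.

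Ttr made up 8.06%, 36.3% and 78.6% of the counts of the 9 genes in CIH replicates 1, 2 and 3, against 68.2%, 54.6% and 38.0% in control replicates 1, 2 and 3. The exact 95% intervals were 2.67% to 17.8% in CIH replicate 1 and 74.2% to 82.5% in CIH replicate 3. The 9 genes were thus not present in 1 fixed ratio across the libraries. Without Ttr the other genes summed to 3.09, 3.15 and 4.76 TPM in CIH, against 7.24, 5.52 and 7.57 TPM in control. These sums of TPM did not overlap between the groups. Of single tested genes, judged by CPM and not TPM, 5.7% did not overlap in either direction and 2.65% with CIH lower. Without Prlr as well, a choice made after seeing the data, the sums stood at 1.17, 2.82 and 4.62 TPM in CIH. In control they stood at 7.06, 2.80 and 4.59 TPM, and the groups overlapped. The separation thus held with Prlr in the sum and ended without it.

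**Figure D2:**
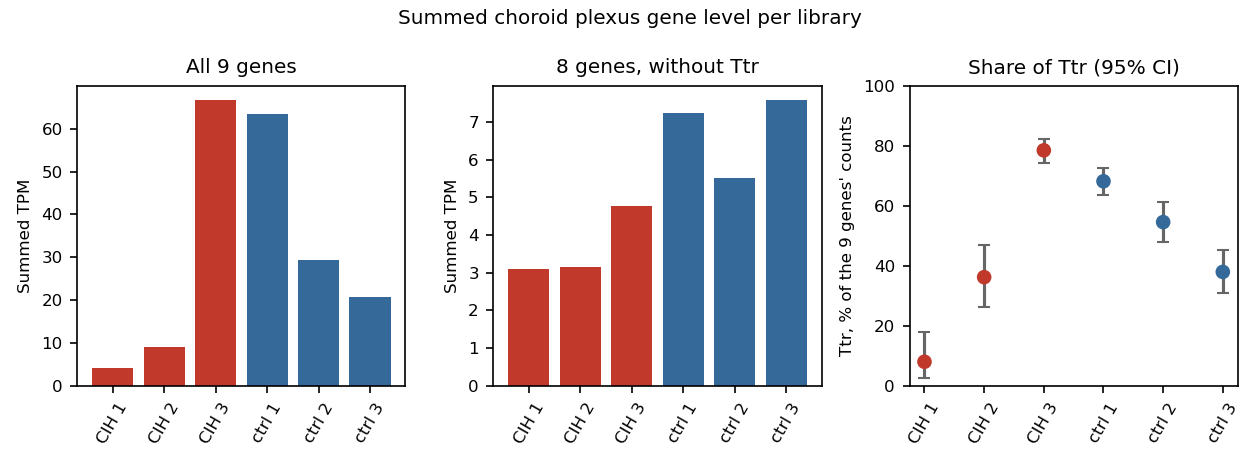
Summed TPM of all 9 genes (left) and of 8 genes without Ttr (middle), and the share of Ttr in the counts of the 9 genes with its exact 95% binomial interval (right), in the 3 CIH libraries (red) and 3 control libraries (blue). The sum of all 9 genes overlapped between the groups, with 66.6 TPM in CIH replicate 3 and 63.4 TPM in control replicate 1, while the sum without Ttr ran from 3.09 to 4.76 TPM in CIH and from 5.52 to 7.57 TPM in control.

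The comparison of CIH with control asked whether these genes differ between the groups. None of the 9 passed the edgeR quasi-likelihood test with Benjamini-Hochberg adjustment over 17935 genes, where 0% of all genes passed (0 genes; 319, or 1.78%, at an unadjusted p under 0.05; DESeq2 called 9, or 0.0502%). Of the 9 genes, 6 passed the filter on low counts and 3 (Sostdc1, Otx2 and Aqp1) did not. The log2 fold change of CIH over control was -0.43 (SE 1.18) for Ttr, -0.73 (SE 0.45) for Kl, -0.72 (SE 0.72) for Folr1, -0.87 (SE 0.92) for Clic6, -0.55 (SE 0.54) for Slc4a5 and -1.03 (SE 0.96) for Prlr, each with an edgeR adjusted p = 1.00. Every one of these values lay below 0, with a median of -0.73, where the median of all tested genes was 0.00 and 49.4% of them lay below 0. Of dentate granule cell markers 6 of 6 tested lay below 0 (median -0.53), and of ependymal and motile cilia genes 12 of 14 (median -0.31). Of vessel markers 14 of 15 lay above 0 (median 0.31), 5 of them with no overlap between the groups by CPM, and of erythroid markers 6 of 6 (median 0.40). None of these marker genes passed the test, and their part in the values of the 9 genes was not tested. None of the 6 choroid plexus genes reached an unadjusted p under 0.05, the smallest being 0.149 for Kl. In 0 of the 9 genes did the groups separate, against 5.7% of all tested genes.

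For the genes below the filter, a fit without it gave a log2 fold change of 0.42 (SE 1.18) for Sostdc1, -2.06 (SE 1.47) for Otx2 and -0.15 (SE 0.56) for Aqp1. These values rest on 19.4 counts or fewer in any library. Otx2 ran from -5.94 without CIH replicate 3 to -0.15 without control replicate 1, and Sostdc1 was -2.42 without CIH replicate 3. A single library set the size and at times the direction of the values: without CIH replicate 3 the log2 fold change of Ttr was -3.08, and without control replicate 1 it was 0.31. Ttr also turned to 0.13 without CIH replicate 1 and to 0.029 without CIH replicate 2. Leaving out CIH replicate 3 also gave the lowest value for Clic6 (-1.93) and Slc4a5 (-1.31), while Prlr was lowest without CIH replicate 1 (-2.49) and Folr1 without CIH replicate 2 (-1.68). Kl ran from -1.01 without control replicate 3 to -0.36 without control replicate 1.

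**Figure D3:**
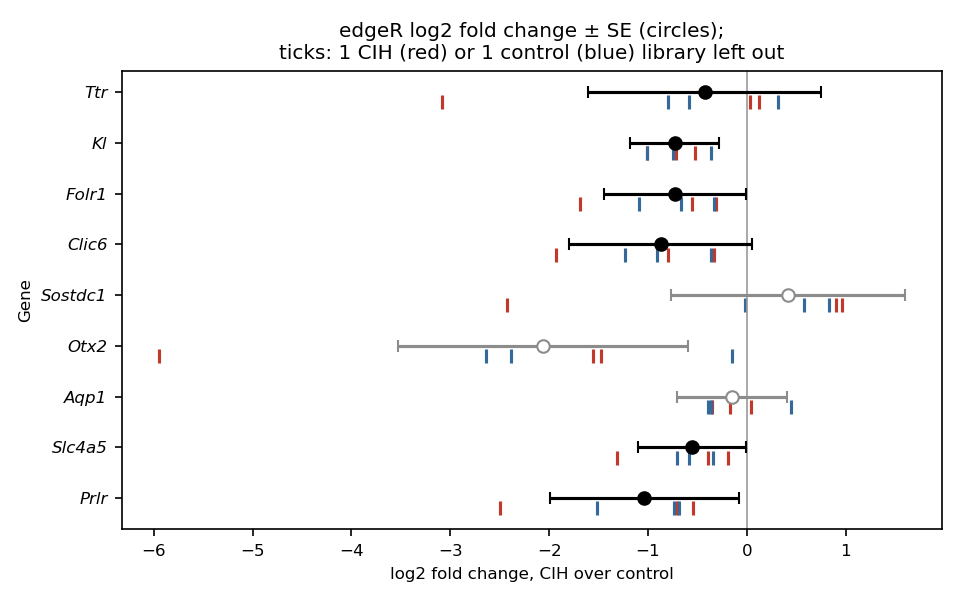
The log2 fold change of CIH over control (x axis) for each of the 9 genes from edgeR, as a circle with its SE; open circles are genes below the low-count filter, fitted without it. Ticks show the value with 1 CIH library (red) or 1 control library (blue) left out. Ttr spans 0 with ticks from -3.08 to 0.31, while Kl, Folr1, Clic6, Slc4a5 and Prlr stay below 0 with every library left out.

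The likeness of other genes to Ttr was measured as the Euclidean distance between log2 CPM profiles over the 6 RNA libraries, each centred on its own mean. It describes these libraries only, since all genes share them. Sostdc1, Otx2 and Aqp1 lay below the low-count filter and were not ranked. Of the 5 other members that were ranked, Clic6 was the most like Ttr, at rank 16 of 17934 genes and a distance of 2.38 log2 units. Slc4a5 ranked 218 and Kl 265, Folr1 ranked 2272, and Prlr ranked 17817, so that 99.3% of genes ranked at or above it. Pearson's r with Ttr over the 6 libraries was 0.90 for Clic6, 0.86 for Kl, 0.82 for Slc4a5, 0.37 for Folr1 and -0.52 for Prlr.

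Among genes outside the members with a gene name, the 10 with the most similar profiles were Col6a5 (distance 1.24), Plk5 (1.36), Ankdd1a, Prox1, Olr1462, Abcb1b, Svep1, Lrrc10b, Cartpt and Slc10a4 (2.35). None of these belongs to the wider choroid plexus list, while Plk5 and Prox1 belong to the list of dentate granule cell markers. Prox1, the transcription factor that fixes granule cell identity, stood at 8.77, 50.1 and 113 TPM in the CIH libraries, against 132, 35.5 and 61.0 TPM in the control libraries. Its log2 fold change was -0.38 (SE 0.85, edgeR adjusted p = 1.00), with CIH replicate 1 lowest and control replicate 1 and CIH replicate 3 highest. The same libraries were lowest and highest for Ttr. Plk5, a brain-enriched polo-like kinase, stood at 1.03, 4.16 and 20.4 TPM in CIH, against 24.5, 6.33 and 7.41 TPM in control. The 100 genes nearest to Ttr were taken from 17934 ranked genes. They held 4 of the 6 tested dentate markers and 1 of the 28 tested genes of the wider choroid plexus list. They also held 1 (Clic6) of the 5 other tested members. Lists and members were chosen with earlier results of these data known, so these counts describe the libraries only. The summed dentate markers ran from 190 to 670 TPM in CIH and from 433 to 816 TPM in control. The part of granule cell content in the Ttr values was not tested.

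Prlr was examined in the same way after its values were seen. Its nearest named genes were Tpd52l1 (distance 0.76), Fxyd6 (0.77) and Bace2 (0.82). Fxyd6, a regulator of the sodium pump, had 1114, 430 and 240 counts in CIH, against 238, 1625 and 1185 counts in control. These genes, like Prlr, were low in CIH replicate 3 and control replicate 1, the libraries in which Ttr was highest. That pair of RNA libraries also had the smallest chi-square per degree of freedom of any pair. The part of this likeness in the Ttr and Prlr profiles was not tested.

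**Figure D4:**
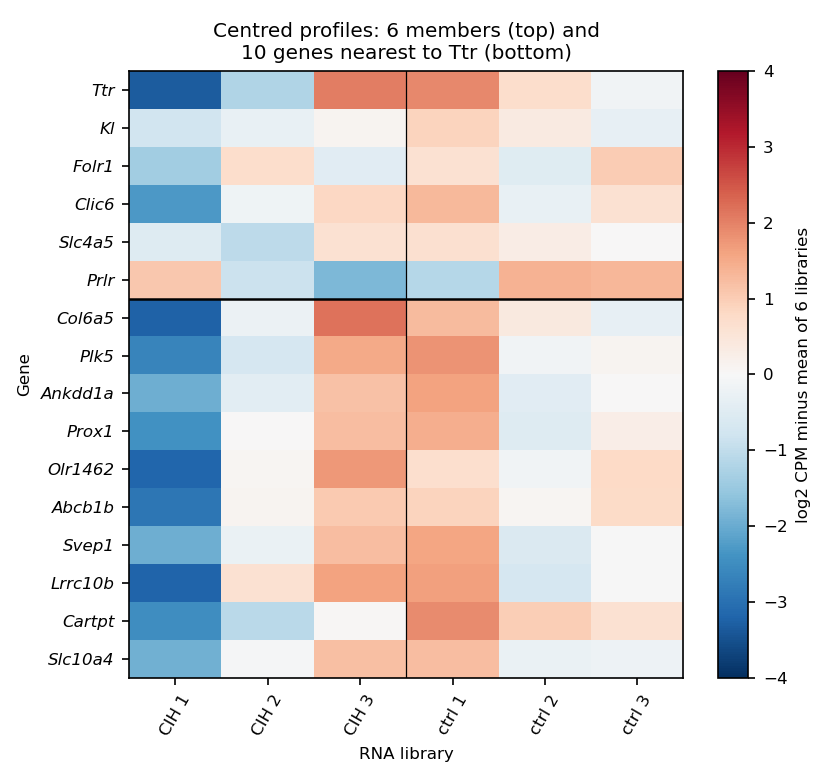
Profiles of the 6 members that passed the low-count filter (above the line) and of the 10 named genes nearest to Ttr (below it), as log2 CPM minus the gene's mean over the 6 RNA libraries (colour), with the 3 CIH libraries on the left and the 3 control libraries on the right. Ttr is low in CIH replicate 1 and high in CIH replicate 3 and control replicate 1, as are Plk5 and Prox1, while Prlr is lowest in CIH replicate 3 and control replicate 1.

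A wider list of 39 further genes known from choroid plexus epithelium, all measured, was set beside the 9. Of 28 tested, 0 passed the edgeR test in either direction; 17 had a log2 fold change below 0 and 11 above, with a median of -0.15 against 0.00 over all tested genes. The 4 most abundant genes of the wider list included Ca12, a carbonic anhydrase, and Slc12a2, the sodium-potassium-chloride cotransporter. The others were Enpp2, the secreted enzyme autotaxin, and Igfbp2, a binding protein of insulin-like growth factors. Ca12 stood at 29.3, 68.8 and 55.6 TPM in CIH, against 48.8, 125 and 141 TPM in control, with a log2 fold change of -1.08 (SE 0.48). The values were 0.15 (SE 0.15) for Slc12a2, 0.24 (SE 0.32) for Enpp2 and -0.01 (SE 0.30) for Igfbp2, each with an edgeR adjusted p = 1.00. Ca12 was high in control replicates 2 and 3, as Prlr was, and not in the libraries with the most Ttr. Unlike Prlr, Ca12 was lowest in CIH replicate 1, where Prlr stood at 1.92 TPM. The 4 most abundant genes are also known from other cells of the brain.

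The wider list summed to 388.1, 336.5 and 392.3 TPM in the CIH libraries, against 410.1, 403.5 and 436.0 TPM in the control libraries, and these sums did not overlap. This was so for 2 of 16 lists, the other being the bicarbonate transporters and carbonic anhydrases. Ca12 belongs to both. Without Ca12, a sum chosen after seeing the data, the wider list stood at 358.8, 267.7 and 336.7 TPM in CIH, against 361.3, 279.0 and 294.7 TPM in control, and overlapped. The bicarbonate list without Ca12 stood at 975, 977 and 1027 TPM in CIH, against 1159, 1171 and 1137 TPM in control, still with no overlap. In the bicarbonate list 0 of 12 tested genes passed. Of these, 8 had a log2 fold change below 0 and 4 above, with a median of -0.08 against 0.00 over all tested genes. The list's most abundant gene was Slc4a4, the electrogenic sodium bicarbonate cotransporter known from astrocytes. Slc4a4 stood at 239, 329 and 319 TPM in CIH, against 416, 543 and 448 TPM in control. Whether the list's sums separated without Slc4a4 was not tested. The groups did not overlap for Slc4a4, and its log2 fold change from counts was -0.27 (SE 0.10, edgeR adjusted p = 1.00). By CPM, Slc4a4 averaged 328 ± 10.2 in CIH and 396 ± 8.34 in control, and by TPM 296 ± 49.2 in CIH and 469 ± 65.6 in control (SD, n = 3 each). Lmx1a, a transcription factor of the embryonic roof plate that gives rise to choroid plexus, was chosen after its values were seen. It had 0, 0 and 3 counts in CIH and 8, 6 and 8 counts in control, below the filter.

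The pathways in which the 9 genes act were read from lists of other genes. No gene passed the edgeR test in either direction among 9 tested genes of thyroid hormone and retinol carriage (partners of Ttr), 8 of klotho and FGF23 signalling, 6 of folate transport, 4 aquaporins, 8 of prolactin signalling, 5 other chloride intracellular channel proteins and 9 BMP and WNT antagonists, ligands and receptors linked to Sostdc1. Median log2 fold changes were -0.56 for thyroid hormone and retinol carriage, -0.03 for klotho signalling, -0.16 for folate transport, -0.07 for aquaporins, 0.04 for prolactin signalling, 0.33 for the chloride channel proteins and -0.03 for the genes linked to Sostdc1. The most abundant gene of thyroid hormone and retinol carriage was Thra, a thyroid hormone receptor, with a log2 fold change of -0.11 (SE 0.21). Rbp4, the retinol-binding protein that transthyretin carries, stood at 33.1, 9.42 and 21.8 TPM in CIH, against 48.6, 29.1 and 25.9 TPM in control, with a log2 fold change of -0.70 (SE 0.45). Rbp4 overlapped between the groups and did not follow the library order of Ttr. Fgfr1, the receptor that klotho joins to bind FGF23, differed by -0.03 (SE 0.25) on the log2 scale, Stat5b, the transcription factor that prolactin activates, by 0.06 (SE 0.28), and Jak2, the kinase of the prolactin receptor, by 0.02 (SE 0.15). Lrp6, the WNT co-receptor that Sostdc1 binds, differed by -0.04 (SE 0.09), and Clic4 by 0.18 (SE 0.18). The folate-processing enzyme gene Ggh differed by -0.19 (SE 0.20), each of these with an edgeR adjusted p = 1.00. Aquaporin RNA in these libraries came mainly from Aqp4, the astrocyte water channel, at 168, 165 and 194 TPM in CIH and 214, 152 and 185 TPM in control.

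The levels of markers of cells that adjoin the choroid plexus epithelium are given beside the 9 genes. Stromal, meningeal and fibroblast markers summed to 1791, 311 and 986 TPM in CIH, against 1832, 1335 and 1067 TPM in control, and were thus high in CIH replicate 1, where Ttr was lowest. Most of this sum was Ptgds, the prostaglandin D synthase of meninges, choroid plexus and oligodendrocytes, at 1546, 233 and 866 TPM in CIH, against 1664, 1194 and 932 TPM in control. Ependymal and motile cilia genes summed to 51.7, 82.9 and 66.8 TPM in CIH, against 78.2, 50.5 and 70.7 TPM in control. By CPM, 9 of 14 tested ependymal genes were lowest in CIH replicate 1, as Ttr was, against 0 of 15 stromal and 0 of 15 vessel genes. The share of all tested genes lowest in that library was not computed. Pearson's r with Ttr over the 6 libraries was above 0 for 12 of 14 ependymal, 6 of 15 stromal and 1 of 15 vessel genes. Among all tested genes it was above 0 for 9011 of 17934. The most abundant ependymal gene, Rarres2, which encodes chemerin, differed by 0.24 (SE 0.29) on the log2 scale. Vessel markers summed to 660, 535 and 472 TPM in CIH, against 512, 437 and 433 TPM in control. Flt1, a receptor of vascular endothelial growth factor, was the most abundant of them, with a log2 fold change of 0.33 (SE 0.11). By CPM it stood at 119, 109 and 95.6 in CIH, against 88.6, 85.0 and 84.0 in control, with no overlap. By TPM it stood at 161, 206 and 157 in CIH, against 199, 132 and 109 in control, and the groups overlapped. The leading dentate marker, C1ql3, differed by -0.34 (SE 0.44), and the leading erythroid one, the haemoglobin gene Hba-a1, by 0.25 (SE 0.31). In each of these lists 0 of the tested genes passed (15, 14 and 15 tested), nor did any of 6 erythroid, 6 dentate, 7 pyramidal or 7 thalamic and habenular markers. Their part in the levels of the 9 genes was not tested.

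The small RNA libraries, with 4681163 to 4914232 counts each, gave a second readout of the same groups. Their labels carry the same group and number as the RNA libraries but do not say that the RNA was the same. miR-204-5p and miR-211-5p are known to be abundant in choroid plexus and pigment epithelium. How much of their reads here came from choroid plexus was not tested. Their mature sequences from RefSeq (GRCr8) are printed to show how alike the pair is, with the seed (bases 2 to 8) in capitals.
miR-204-5p (chr1:229743493-229743514, plus strand): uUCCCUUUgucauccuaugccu
miR-211-5p (chr1:127189353-127189374, plus strand): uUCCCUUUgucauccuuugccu
The pair shares its seed and differs by A17U, counted from 1 at the 5′ end of miR-204-5p. In the GRCr8 gene table the precursor of miR-204 lies within Trpm3 and that of miR-211 within Trpm1, both genes of cation channels.

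miR-204-5p stood at 8274, 8912 and 10467 CPM in CIH, against 13487, 9420 and 10151 CPM in control, with a log2 fold change of -0.26 (SE 0.18). miR-211-5p stood at 86.3, 104 and 116 CPM in CIH, against 340, 97.4 and 204 CPM in control, with a log2 fold change of -1.07 (SE 0.48). The other arm, miR-204-3p, had 7, 8 and 14 counts in CIH and 48, 25 and 14 counts in control, with a log2 fold change of -1.59 (SE 0.57). All 3 were lowest in CIH replicate 1 and highest in control replicate 1. The share of all tested miRNAs with those extremes was not computed. Without control replicate 1 the log2 fold change was -0.53 for miR-211-5p, -0.067 for miR-204-5p and -0.99 for miR-204-3p. The groups overlapped in each, while 7.69% of all tested miRNAs did not overlap in either direction and 3.5% did not with CIH lower. The other arm of miR-211 was not analysed here. Each of the 3 had an adjusted p = 0.969 by the edgeR quasi-likelihood test over 715 miRNAs. None thus passed the threshold, as was so for 0% of all miRNAs. By edgeR, 17 miRNAs (2.38%) reached an unadjusted p under 0.05, and 0.979% of all miRNAs did with CIH lower. Among the 17 was miR-204-3p, at 0.0286. By DESeq2, 0.28% of all miRNAs passed the threshold. miR-211-5p was 1.03%, 1.16% and 1.10% of the reads of the pair in CIH and 2.46%, 1.02% and 1.97% in control.

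The host gene Trpm3, chosen after its values were seen, had 1057, 1413 and 1635 counts in CIH, against 2584, 1474 and 1712 counts in control, with a log2 fold change of -0.43 (SE 0.24, edgeR adjusted p = 1.00). It too was lowest in CIH replicate 1 and highest in control replicate 1, and without control replicate 1 its value was -0.13. Trpm1 had at most 15 counts in any library. In the RNA library of CIH replicate 3, where Ttr was highest, Trpm3 was below control replicate 1. Among the small RNA libraries the 3 miRNAs were also lower in CIH replicate 3 than in control replicate 1. Whether libraries of the same number share RNA is not stated. In CIH replicate 1 Trpm3 had 1057 counts, while Ttr had 5.

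The miRNAs of ciliated epithelium, which include the multiciliated cells of the ventricle wall and choroid plexus, belong to a seed family, shown here with bases 2 to 8 in capitals to mark the shared seed.
miR-449a-5p (chr2:46403925-46403946, plus strand): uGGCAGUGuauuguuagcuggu
miR-34b-5p (chr8:60306657-60306679, minus strand): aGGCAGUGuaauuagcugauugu
miR-34c-5p (chr8:60306133-60306155, minus strand): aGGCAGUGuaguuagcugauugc
miR-449a-5p had 241, 1268 and 1562 counts in CIH, against 1779, 1019 and 1251 counts in control, with a log2 fold change of -0.39 (SE 0.68). miR-34c-5p stood at 163, 713 and 511 CPM in CIH, against 828, 429 and 547 CPM in control, with a log2 fold change of -0.38 (SE 0.56). miR-34b-5p had one of -0.68 (SE 0.59), miR-34b-3p of -0.11 (SE 0.64) and miR-34c-3p of -0.33 (SE 0.60). All 5 tested were lowest in CIH replicate 1, and the other CIH libraries lay within or close to the control range. In the GRCr8 gene table miR-34b and miR-34c overlap the same gene, Hoatz. Both arms of each are counted here, so the 5 are not independent. The share of all tested miRNAs lowest in that library was not computed. The edgeR adjusted p of the 5 ran from 0.969 to 0.985, and miR-449c-5p had at most 1 count. Without CIH replicate 1, miR-449a-5p turned to 0.079, miR-34b-3p to 0.32, miR-34c-5p to 0.0155 and miR-34c-3p to 0.035.

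**Figure D5:**
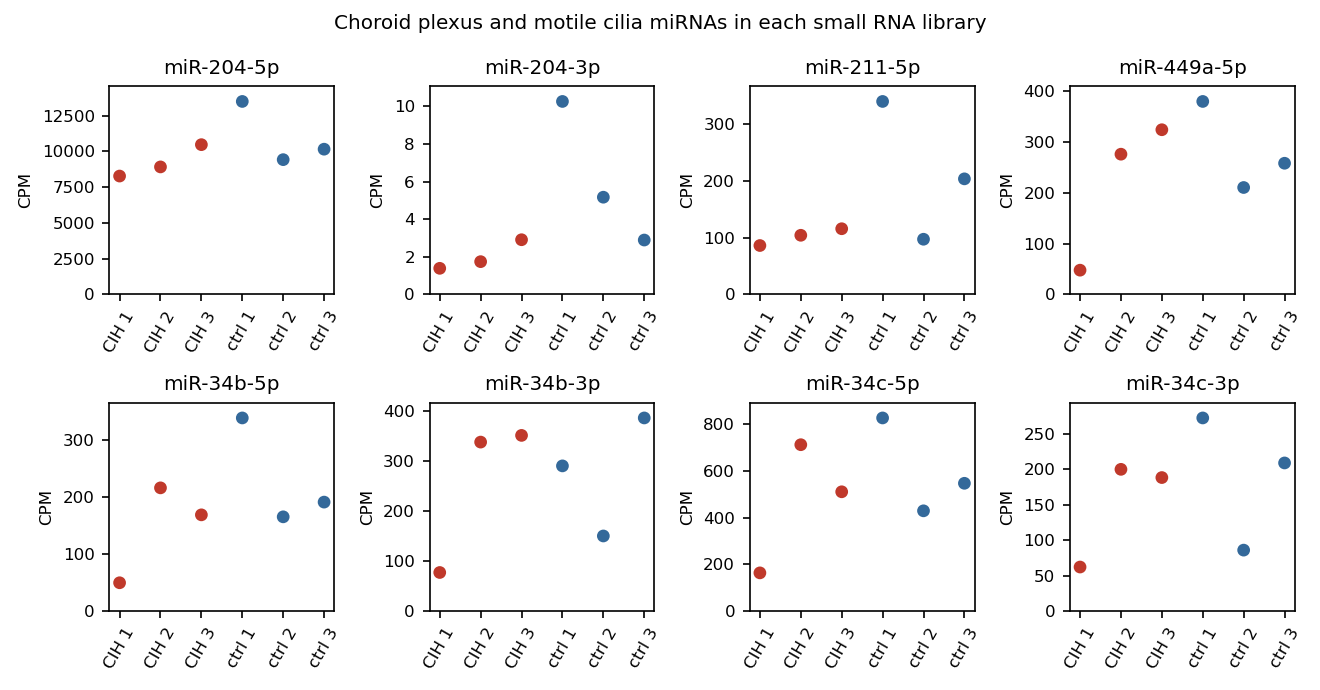
Level in CPM (y axes, from 0, a separate scale for each miRNA) of 3 choroid plexus and 5 motile cilia miRNAs in the 3 CIH (red, left) and 3 control (blue, right) small RNA libraries. CIH replicate 1 is lowest in every panel, with 47.8 CPM of miR-449a-5p, and miR-211-5p reaches 340 CPM in control replicate 1.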

How the data were processed

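RNA and small RNA of rat hippocampus were sequenced in 3 CIH and 3 control libraries each, grouped by their titles. The RNA table holds estimated counts and TPM made by the authors, per the file headers; RSEM 1.2.12, HISAT2 2.2.0, Bowtie2 2.2.5 and the build Rnor_6.0 are named, without saying which step used them, by the submitters' processing notes. Whether counting used strand is not stated there. Of the deposited estimated counts, 16.0% were not whole, and they were rounded for testing. The small RNA table holds deposited whole-number counts and a deposited normalized signal, which is the count divided by 1 number per library (17.3 to 18.4).

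Each set was tested with edgeR 4.0.16 in R 4.3.3 (quasi-likelihood F test, TMM, filterByExpr), with Benjamini-Hochberg adjustment over 17935 genes or 715 miRNAs and a threshold of 0.05. Log2 fold changes are given as CIH over control, each with an SE computed from its F statistic. CPM (counts scaled to 1e+06 per library) are scaled by TMM-adjusted totals, except where an interval is given. Profiles used log2 CPM with a prior count of 2. The test was checked on simulated data. Alternatives were RLE factors, no filter, DESeq2 1.42.0, a replicate block, each library left out in turn, and limma 3.58.1 on log2 of the authors' TPM or signal plus a pseudocount (1 or 0.1). Members and lists were chosen with earlier results of these data known. List genes were matched by symbol (189) or by a synonym (8) in the RefSeq GRCr8 table. Named were the 9 members, genes among the 4 most abundant of the lists, the 10 named genes nearest to Ttr and the listed miRNAs; other genes were picked after seeing their values. Values of a further listed gene are not reported here. Figures used matplotlib 3.10.9 in Python 3.11.15.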

Additional observations from a re-analysis of the deposited data

How the results depend on the processing

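Under every alternative, 0 of the 9 genes and 0 of the wider choroid plexus list were called. DESeq2 called 9 genes, and limma with a pseudocount of 1 or 0.1 called 1 each; for miRNAs no filter, DESeq2 and both limma settings called 2 each. The replicate block called 0 genes and 0 miRNAs. Deviations of same-numbered RNA libraries correlated at -0.222, -0.0457 and -0.176, small RNA ones at 0.122, -0.149 and -0.0340. With so few libraries these values cannot show whether replicate numbers pair the libraries. Leaving out 1 library gave 0 to 1 genes (1 without CIH replicate 2 or control replicate 3), 0 to 1 miRNAs (1 without the same libraries) and 0 of the 9. With all libraries kept, 139 recomputed log2 fold changes kept their direction and 2 did not: Sostdc1 turned to -0.26 with limma at a pseudocount of 0.1 and -0.19 with the replicate block. The cause was not tested. Ttr stood at -1.59 under the block and at -1.49 and -1.77 with limma.

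With 1 library left out, Ttr ran from -3.08 to 0.31, Sostdc1 from -2.42 (CIH replicate 3; -0.023 without control replicate 3) to 0.96, Aqp1 from -0.39 to 0.44 (control replicate 1; 0.041 without CIH replicate 2), Igfbp2 from -0.32 to 0.23 (CIH replicate 2; 0.16 without control replicate 1), Prox1 from -1.36 to 0.32 (control replicate 1; 0.12 without CIH replicate 1), miR-449a-5p from -0.84 to 0.079 (CIH replicate 1), miR-34b-3p from -0.43 to 0.32 (CIH replicate 1; 0.13 without control replicate 3), miR-34c-5p from -0.83 to 0.0155 (CIH replicate 1) and miR-34c-3p from -0.72 to 0.044 (control replicate 1; 0.035 without CIH replicate 1). The difference in summed TPM of the 9 genes, -11.2, ran from -31.2 without CIH replicate 3 to 1.62 without control replicate 1; it was -3.11 without Ttr, -1.95 without Ttr and Prlr, and -0.421 as a geometric mean. The wider list's difference, -44.2 TPM, was 9.40 without Ca12, and the bicarbonate list's, -216 TPM, was -163. Counts of 0 to 45 per library limit every member but Ttr, and Ttr itself had 5 and 33 counts in CIH replicates 1 and 2.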
